A study of Homo sapiens with 6 samples.

Results

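Respiratory chain and ATP synthase subunits are the proteins that carry electrons from NADH and succinate to oxygen and use the resulting proton gradient to make ATP. The subunit genes were taken as the probe sets with a single gene symbol that names a subunit of complex I (NDUFA, NDUFB, NDUFC, NDUFS and NDUFV genes), complex II (SDHA to SDHD), complex III (UQCR genes and CYC1), cytochrome c (CYCS), complex IV (COX4I to COX8 genes) or complex V, the ATP synthase (ATP5 genes), without pseudogenes. This gave 78 genes on 154 probe sets, of 19775 genes on 41097 single-symbol probe sets. Of the 78 genes, 75 passed the filter on low values and were tested among 16868 genes. ATP5MF, COX7A1 and COX8C did not pass it.

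Total RNA was measured on 6 Affymetrix U133 Plus 2.0 arrays, 2 for each of 3 groups. All RNA came from DMS-53, an established line of human small cell lung cancer cells. The cells were kept for 24 h in RPMI medium with Dp44mT at 25 µM, in the same medium with desferrioxamine (DFO) at 250 µM, or in control medium without a chelator. Both compounds bind iron. Dp44mT is a thiosemicarbazone that enters cells readily, and DFO is a siderophore that crosses membranes poorly, which the submitters give as the reason for its higher concentration. One cell line is a limited model, and nothing in the labels says whether the arrays numbered set 1 and set 2 in each group stem from different cultures. The spread that the tests use is that between 2 arrays of a group and may be only technical.

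Several of these subunits hold iron. Complex I passes electrons from a flavin along a row of iron-sulfur clusters to ubiquinone. Complex II has its own clusters and a haem, and complex III has haems and a cluster. Cytochrome c is itself a haem protein. The complex IV and ATP synthase genes read here are nuclear and encode subunits that bind no iron. This says nothing of the mtDNA-encoded subunits of complex IV. In low iron or low oxygen the transcription factor HIF is known to raise some mitochondrial genes, among them the alternative subunit COX4I2 and NDUFA4L2. It is also known to raise PDK1 and BNIP3, which reduce the use of pyruvate and the number of mitochondria.

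The data show no subunit gene that passed the test in either chelator. Levels are given on the scale log2(intensity + 16) after quantile normalization, and changes are differences between group means on that scale. With limma's moderated test and Benjamini-Hochberg adjustment over all 16868 genes at 0.05, 0 of 75 subunit genes passed for Dp44mT against control, where 3.37% of all genes tested passed (323 or 1.91% higher, 246 or 1.46% lower). For DFO against control 0 of 75 passed, where 1.10% of all genes passed (175 or 1.04% higher, 10 or 0.0593% lower). For Dp44mT against DFO 0 of 75 passed, and so did 0 of all genes (0%). With shares this low, a count of 0 among 75 genes does not by itself set the subunit genes apart from all genes. At an unadjusted p under 0.05, 5 subunit genes were lower and 0 higher with Dp44mT, against 15.9% and 8.21% of all genes. With DFO 1 was lower and 0 were higher, against 7.59% and 5.76% of all genes. Between Dp44mT and DFO 0 had an unadjusted p under 0.05, against 4.26% of all genes (1.55% higher, 2.71% lower). On the same values without scaling between arrays, the split of all genes called was 25 higher and 41 lower for Dp44mT and 18 higher and 8 lower for DFO. With array medians subtracted it was 117 higher and 186 lower for Dp44mT.

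After quantile normalization the fitted changes were small and narrowly spread. In bulk RNA, fewer cells that express a gene and less of its RNA per cell cannot be told apart. The median change of the 75 genes was -0.12 with Dp44mT, with an interquartile range of 0.328, while all genes had a median of 0.03 and a range of 0.890. With DFO the median was -0.05 and the interquartile range 0.231, against -0.03 and 0.570 for all genes. The 95% interval lay within a 2-fold change either way for 67 of 75 genes with Dp44mT, against 41.7% of all genes, and for 73 of 75 with DFO, against 51.8% of all genes. Without scaling between arrays the median of the 75 genes was -0.68 with Dp44mT and -0.38 with DFO, where all genes had -0.50 and -0.32. The intervals were not recomputed on that scale. The genes whose interval reached past 2-fold with Dp44mT were COX7B2, COX6B2, NDUFV2, NDUFA5, NDUFA8, SDHC, ATP5F1E and ATP5PF, of which NDUFA8 is named here after its values were seen. With DFO they were COX7B2 and COX6B2. A fitted change of 2-fold or more was found for 1 gene with each chelator, COX7B2, against 17.5% of all genes with Dp44mT and 8.71% with DFO.

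Most of these genes have probe sets among the brightest on the arrays, which says nothing of their abundance against other genes. Their mean level had a median percentile of 97.8 among the genes tested, and 66 of 75 lay in the top 10% of levels. The 2 arrays of a group differed by a median of 0.132 for these genes in Dp44mT cells, 0.113 in DFO cells and 0.130 in control cells, against 0.382, 0.375 and 0.162 for all genes. Quantile normalization gives every array the same distribution, so a shift shared by most of the brightest genes would not be seen on this scale.

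The arrays themselves differed in brightness. The median deposited intensity over all probe sets was 83.6 (set 1) and 49.9 (set 2) for Dp44mT cells, 85.5 and 63.0 for DFO cells, and 88.9 and 88.8 for control cells. The replicate arrays correlated at 0.892 (Dp44mT), 0.918 (DFO) and 0.971 (control) over all genes tested. Neuroendocrine markers, which define small cell lung cancer, were above the filter level for 11 of 11 genes on all 6 arrays, with a summed level of 18032 and 16796 in Dp44mT cells, 19066 to 19272 in DFO cells and 25134 to 27552 in control cells. Of the fibroblast markers, 7 to 9 of 10 were above the filter level per array, with PDGFRB below it on all 6, and their summed level was 1408 and 3383 in Dp44mT cells, 1189 and 2724 in DFO cells and 1471 and 839 in control cells. The endothelial sum ran from 839 to 2168 in Dp44mT cells, 808 to 1793 in DFO cells and 448 to 855 in control cells, with CDH5, ESAM and CLDN5 below the filter level on all 6 arrays. The leukocyte sum ran from 453 to 515 in Dp44mT cells, 370 to 492 in DFO cells and 365 to 509 in control cells, with PTPRC above the filter level only on the set 2 array of Dp44mT cells. All these sums are of intensities after quantile normalization. The high fibroblast and endothelial sums were on the set 2 chelator arrays, the dimmest of the series, and their part in the results below was not tested. Genes known to respond to iron chelation were read as a check of the labels. VEGFA rose 5.01-fold with Dp44mT and 5.63-fold with DFO (limma adjusted p = 0.012 for each), and NDRG1 rose 4.05-fold and 4.31-fold (adjusted p = 0.018 and 0.022). The transferrin receptor gene TFRC was 1.63-fold and 1.79-fold higher without passing the test (adjusted p = 0.091 and 0.13).

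**Figure D1:**
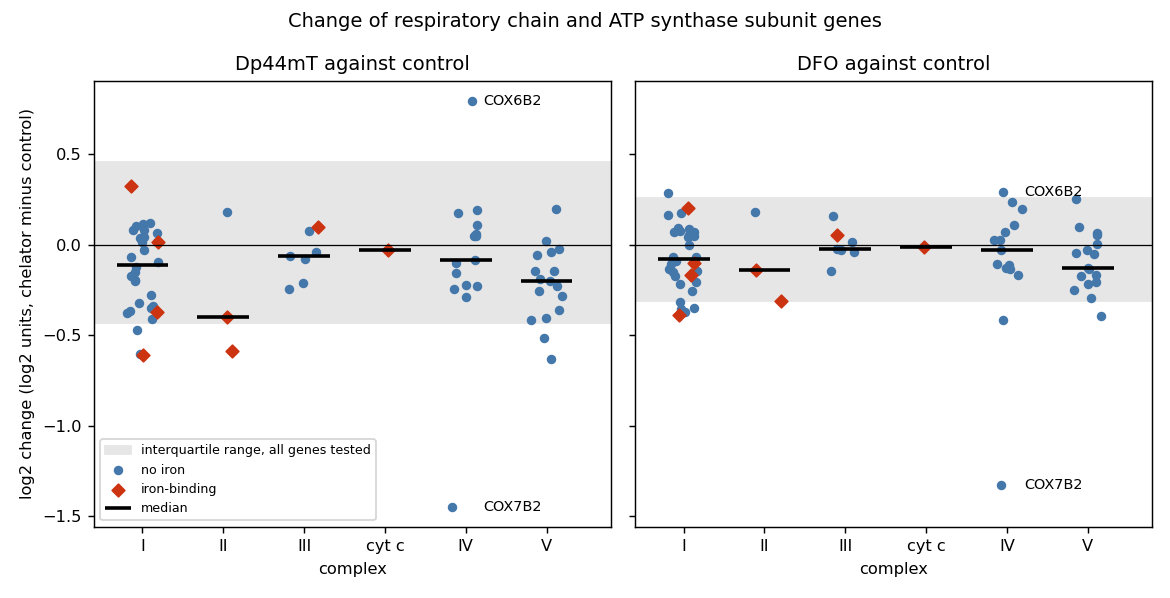
Change of each of the 75 tested subunit genes against control, on the log2 scale, for Dp44mT (left) and DFO (right). Each point is a gene, red diamonds are subunits that bind iron, bars are medians per complex and the grey band is the interquartile range of all genes tested. The medians lie between -0.40 and -0.01, and COX7B2 is the only gene beyond 1 log2 unit in either panel.

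Complex I is the NADH dehydrogenase at the entry of the chain, and 32 of its genes were tested. Their median change was -0.11 with Dp44mT (-0.09 within set 1 and -0.14 within set 2) and -0.08 with DFO (-0.07 and -0.05). It was -0.42 and -0.26 with array medians subtracted and -0.79 and -0.48 without scaling, where the median of all genes lay at -0.13 and -0.10 and at -0.50 and -0.32. Without both set 2 chelator arrays it was -0.0087 with Dp44mT and -0.021 with DFO, and with the mean of each gene's probe sets it was -0.062 with Dp44mT. With Dp44mT the 2 treated arrays were both below the 2 control arrays for 13 genes and both above for 1, and with DFO for 12 and 3. Over all complexes such separated arrays were lower for 36 of 75 genes (48.0%) and higher for 6 with Dp44mT, where 33.1% and 30.3% of all genes were. With DFO they were lower for 26 (34.7%) and higher for 8 (10.7%), where 30.0% and 17.1% of all genes were.

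The genes of complex I with the lowest fitted changes in Dp44mT cells were NDUFV2 and NDUFA5. NDUFV2 holds an iron-sulfur cluster beside the flavin that accepts electrons from NADH. Its levels were 11.29 and 11.02 in Dp44mT cells and 11.38 and 11.36 in DFO cells, against 11.65 and 11.87 in control cells. Every chelator array was below both control arrays, and the 2 Dp44mT arrays were also below the 2 DFO arrays. The change was -0.61 (SE 0.19, adjusted p = 0.14) with Dp44mT and -0.39 (SE 0.19, adjusted p = 0.47) with DFO. NDUFA5, an accessory subunit of the arm that reaches into the matrix, had 10.90 and 10.66 in Dp44mT cells and 11.22 and 11.04 in DFO cells, against 11.34 and 11.44 in control cells. The 3 groups did not overlap and ran in the order Dp44mT, DFO, control from low to high. Its change was -0.61 (adjusted p = 0.14) with Dp44mT and -0.26 (adjusted p = 0.63) with DFO. NDUFV3, a small accessory subunit of the flavoprotein part, was at -0.37 with each chelator (adjusted p = 0.31 and 0.50).

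Other complex I genes lay at or above control. NDUFS7, whose cluster hands electrons to ubiquinone, had 10.04 and 9.92 in Dp44mT cells and 9.90 and 9.82 in DFO cells, against 9.70 and 9.61 in control cells. Both chelators' arrays were above both control arrays, the opposite side from NDUFV2. The change was 0.32 (adjusted p = 0.29) with Dp44mT and 0.20 (adjusted p = 0.67) with DFO. Without scaling between arrays these 2 values were -0.39 and -0.16, where the median of all genes was -0.50 and -0.32. With array medians subtracted they were -0.017 and 0.068, where the median of all genes was -0.13 and -0.10. With the mean of its probe sets they were 0.53 and 0.23. NDUFS3, a core subunit without a cluster, was at 0.12 and 0.05 (adjusted p = 0.67 and 0.92). NDUFB5, an accessory subunit of the membrane arm, was at 0.08 and 0.28 (adjusted p = 0.86 and 0.71), and its 2 control arrays differed by more than either value, at 10.70 and 10.27.

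Complex II, succinate dehydrogenase, links the citrate cycle to the chain. The 3 tested genes had a median change of -0.40 with Dp44mT (-0.25 within set 1 and -0.55 within set 2) and -0.14 with DFO (-0.09 and -0.19). It was -0.74 and -0.33 with array medians subtracted and -1.12 and -0.56 without scaling, and -0.22 and -0.092 with the mean of each gene's probe sets. SDHC and SDHD are the membrane anchors that hold the haem. SDHC had 10.04 and 9.75 in Dp44mT cells and 10.38 and 9.98 in DFO cells, against 10.56 and 10.41 in control cells. All 4 chelator arrays were below both control arrays, with a change of -0.59 (SE 0.22, adjusted p = 0.20) for Dp44mT and -0.31 (SE 0.22, adjusted p = 0.64) for DFO. SDHD had 10.72 and 10.61 in Dp44mT cells and 10.87 and 10.96 in DFO cells, against 10.96 and 11.16 in control cells. Only the Dp44mT arrays were apart from control, at -0.40 (adjusted p = 0.24), while DFO was at -0.14 (adjusted p = 0.76). SDHA, the flavoprotein that oxidizes succinate, was at 0.18 with each chelator (adjusted p = 0.55 and 0.73). SDHB, which carries the clusters, was not analysed here.

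Complex III passes electrons from ubiquinol to cytochrome c. Its 7 genes had a median change of -0.07 with Dp44mT and -0.02 with DFO. It was -0.30 and -0.14 with array medians subtracted, -0.67 and -0.37 without scaling, and turned to 0.013 and 0.032 without both set 2 chelator arrays. CYC1, the haem subunit cytochrome c1, had 11.89 and 11.88 in Dp44mT cells and 11.85 and 11.84 in DFO cells, against 11.81 and 11.77 in control cells. These values were ordered Dp44mT, DFO, control from high to low without overlap, but the changes were only 0.09 and 0.05 with an SE of 0.16 (adjusted p = 0.70 and 0.90). UQCRC2, a large core protein, was at 0.08 and 0.16 (adjusted p = 0.77 and 0.71). UQCR10 was at -0.24 and -0.15 (adjusted p = 0.51 and 0.81), and UQCRB was at -0.21 and -0.04 (adjusted p = 0.42 and 0.92). Both are small subunits.

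CYCS, the mobile haem protein that carries electrons to complex IV, had 12.95 and 12.95 in Dp44mT cells and 13.02 and 12.90 in DFO cells, against 12.95 and 13.00 in control cells. Both Dp44mT arrays were just below both control arrays, and the DFO arrays lay on either side of them, with changes of -0.03 and -0.01 (adjusted p = 0.92 and 0.98). With array medians subtracted these changes turned to 0.11 and 0.058, without scaling they were -0.26 and -0.17, and without both set 2 chelator arrays the DFO value was 0.046. With the mean of its probe sets both changes turned to 0.18. Its 95% interval was -0.44 to 0.38 with Dp44mT and -0.42 to 0.40 with DFO.

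**Figure D2:**
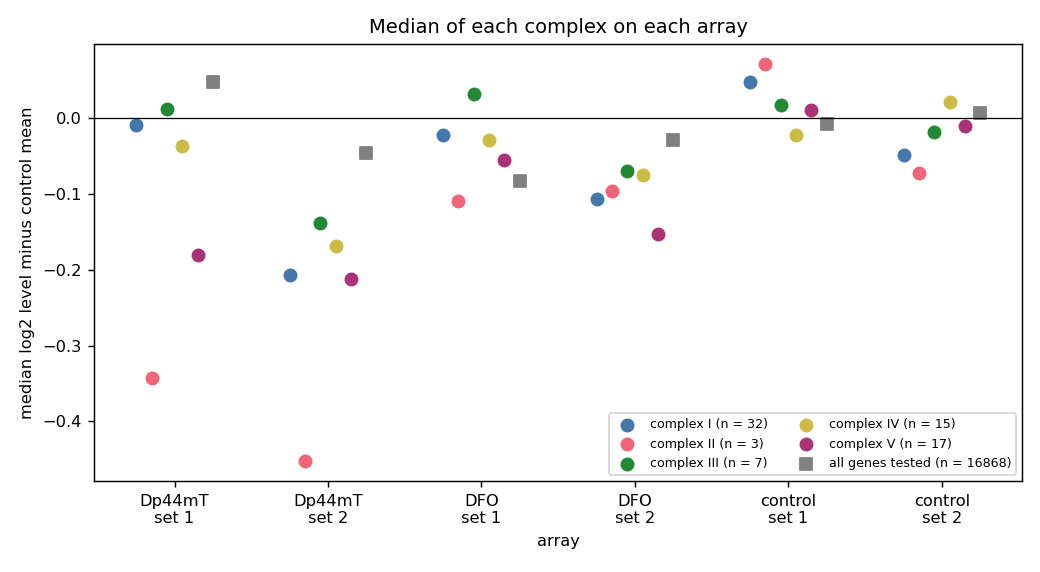
Median over the genes of each complex of the log2 level minus the mean of the 2 control arrays, for each of the 6 arrays, with all genes tested as squares. Complex II (n = 3) is lowest on both Dp44mT arrays, and complexes I, III, IV and V are lower on set 2 than on set 1 within each chelator.

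Complex IV, cytochrome c oxidase, reduces oxygen. Its 15 tested genes had a median change of -0.08 with Dp44mT (-0.05 within set 1 and -0.12 within set 2) and -0.03 with DFO (0.03 and -0.06). It was -0.15 and -0.047 with array medians subtracted and -0.52 and -0.27 without scaling, and -0.037 with Dp44mT without both set 2 chelator arrays. COX5A, a subunit of the matrix side, was at -0.29 and -0.13 (adjusted p = 0.36 and 0.78). Several complex IV subunits exist as a widely used isoform and as one restricted to certain tissues, and the largest decrease and the largest increase of the whole set with Dp44mT were fitted for restricted isoforms, COX7B2 and COX6B2.

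COX7B2 is known mainly from testis and is a close relative of COX7B. Its levels were 8.96 and 8.09 in Dp44mT cells and 8.89 and 8.39 in DFO cells, against 10.08 and 9.86 in control cells. In deposited intensity this was 524 and 147 (Dp44mT), 633 and 237 (DFO), against 1234 and 1307 (control). All 4 chelator arrays lay far below both control arrays, with the set 2 array lower in each chelator. The change was -1.45 (SE 0.36, adjusted p = 0.094) with Dp44mT, or 0.367-fold, and -1.33 (SE 0.36, adjusted p = 0.22) with DFO, or 0.398-fold. It did not pass the test with either chelator, but with the set number as a replicate block the Dp44mT change passed in limma's test (adjusted p = 0.046) and the DFO change did not (adjusted p = 0.11). The set numbers are not taken as pairs, since over all genes the deviations of same-numbered Dp44mT and control arrays correlated at -0.35. COX7B2 was read as not passing. The only single-symbol probe set of COX7B2 gives no second reading. COX7B had 12.28 and 12.25 in Dp44mT cells and 12.43 and 12.34 in DFO cells, against 12.37 and 12.47 in control cells, with changes of -0.16 and -0.03 (adjusted p = 0.54 and 0.95). COX7B was read from the brighter of its 2 probe sets, between which the change with Dp44mT differed by more than 1 log2 unit. The isoforms are not compared in level, since each is read by its own probe set.

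Promoters are printed to set the member with the largest change and a cluster gene beside a pair of known HIF targets. They are taken from the RefSeq table of GRCh38.p14, as the 250 bases before the gene's start on its own strand. The windows show where the core letters of a HIF site, ACGTG or GCGTG, occur on either strand (CACGT and CACGC when read on the other strand). The capitals mark those letters. COX7B2 lies on the minus strand at chr4:46909246-46909495 and had none in this window. NDUFV2 lies on the plus strand at chr18:9102449-9102698 and COXFA4L2 on the minus strand at chr12:57240763-57241012, with 2 matches each. BNIP3, a HIF target that rose here, lies on the minus strand at chr10:131981924-131982173 with 6 matches, of which 2 overlap in one stretch that reads alike on both strands.
COX7B2: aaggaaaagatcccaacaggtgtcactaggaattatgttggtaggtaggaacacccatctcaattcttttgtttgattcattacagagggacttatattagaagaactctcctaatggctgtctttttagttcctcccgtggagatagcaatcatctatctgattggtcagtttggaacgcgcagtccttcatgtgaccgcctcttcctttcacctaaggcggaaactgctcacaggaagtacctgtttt
NDUFV2: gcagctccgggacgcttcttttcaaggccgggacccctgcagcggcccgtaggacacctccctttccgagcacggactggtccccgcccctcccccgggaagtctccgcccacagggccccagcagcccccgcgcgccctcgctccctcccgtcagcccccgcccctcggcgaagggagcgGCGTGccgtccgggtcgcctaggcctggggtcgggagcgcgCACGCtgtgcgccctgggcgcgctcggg
COXFA4L2: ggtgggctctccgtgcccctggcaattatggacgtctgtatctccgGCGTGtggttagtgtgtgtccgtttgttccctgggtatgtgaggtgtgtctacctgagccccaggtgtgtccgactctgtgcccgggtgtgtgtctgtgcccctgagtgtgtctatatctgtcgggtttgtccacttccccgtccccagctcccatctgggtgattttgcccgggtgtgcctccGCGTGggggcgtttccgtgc
BNIP3: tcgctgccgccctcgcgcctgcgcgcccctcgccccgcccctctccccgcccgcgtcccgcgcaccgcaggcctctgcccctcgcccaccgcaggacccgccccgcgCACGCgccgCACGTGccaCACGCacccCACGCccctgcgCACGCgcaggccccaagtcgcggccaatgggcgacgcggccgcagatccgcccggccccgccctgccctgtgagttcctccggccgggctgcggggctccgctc
Of the 78 subunit genes, 66 matched a promoter in the table, and 37 of them (56.1%) held at least 1 of the letters, against 43.1% of 27305 promoters. For ACGTG alone the shares were 24.2% and 18.7%. A match is a run of letters, not a bound site. The promoters compared were not matched for base composition or for expression in these cells, so the higher share is not read as a link to HIF.

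COX4I2, the isoform known from lung and from low oxygen, had 8.16 and 8.19 in Dp44mT cells and 7.80 and 8.07 in DFO cells, against 8.003 and 8.12 in control cells. The changes were 0.11 (adjusted p = 0.70) with Dp44mT and -0.13 (adjusted p = 0.79) with DFO, with 95% intervals of -0.35 to 0.57 and -0.59 to 0.33. Its widely used partner COX4I1 had 12.14 and 12.23 in Dp44mT cells and 12.22 and 12.28 in DFO cells, against 12.20 and 11.83 in control cells, at 0.17 and 0.24 (adjusted p = 0.57 and 0.67). The control arrays of COX4I1 differed by more than either change.

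The NDUFA4 genes carry the symbols COXFA4 and COXFA4L2 in the annotation, so the rule did not take them as members. COXFA4 belongs to complex IV, and COXFA4L2 is its HIF-regulated relative. COXFA4L2 had 6.83 and 7.26 in Dp44mT cells and 6.78 and 7.10 in DFO cells, against 6.56 and 6.52 in control cells. All 4 chelator arrays were above the control arrays at low levels, with changes of 0.50 (SE 0.23, adjusted p = 0.25) and 0.40 (SE 0.23, adjusted p = 0.55) that did not pass. COXFA4 was at -0.25 and -0.17 (adjusted p = 0.37 and 0.70).

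Among the other isoforms, COX6B2, known from testis, had 6.95 and 7.97 in Dp44mT cells and 6.50 and 7.41 in DFO cells, against 6.54 and 6.80 in control cells. After quantile normalization the set 2 arrays stood about 1 log2 unit above the set 1 arrays in both chelators. These are the set 2 arrays with the high fibroblast sums, which are also on normalized values. In deposited intensity COX6B2 had 117 and 136 (Dp44mT) and 85 and 121 (DFO), against 91 and 113 (control). The change was 0.79 (SE 0.46, adjusted p = 0.34) with Dp44mT and 0.29 (SE 0.46, adjusted p = 0.81) with DFO. Within set 1 it was 0.41 and -0.04, and within set 2 it was 1.17 and 0.62. COX6B1, its widely used partner, was at 0.06 and 0.07 (adjusted p = 0.85 and 0.89). COX6A2, known from heart and skeletal muscle, was at -0.25 and -0.42 (adjusted p = 0.42 and 0.43), and COX6A1 at 0.04 and 0.11 (adjusted p = 0.90 and 0.84). COX7A2 was at -0.10 and -0.11 (adjusted p = 0.69 and 0.81), and COX8A at 0.19 and 0.19 (adjusted p = 0.52 and 0.71). Their restricted partners COX7A1 and COX8C were dim, with deposited intensities of 9.7 to 32.4 and 4.3 to 24.7 over the 6 arrays, and were not tested. The pair UQCRH and UQCRHL shares probe sets with several symbols and was not analysed here.

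**Figure D3:**
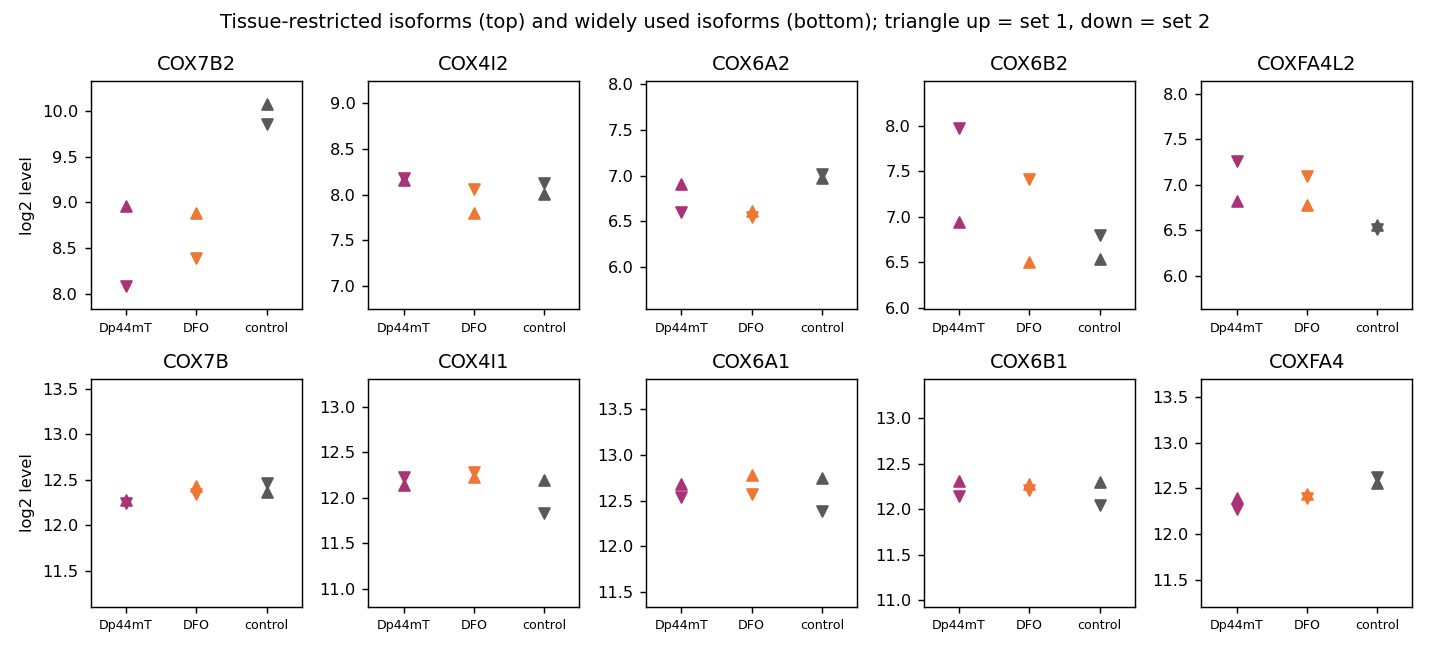
Log2 level on each array of 5 restricted isoforms (top) and their widely used partners (bottom) in Dp44mT, DFO and control cells, with set 1 as upward and set 2 as downward triangles. Each panel spans the same range of log2 units. The 4 chelator points of COX7B2 lie below both control points, and those of COX7B, on its brighter probe set, lie close to them.

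Complex V, the ATP synthase, uses the proton gradient to make ATP and binds no iron. Its 17 tested genes had a median change of -0.20 with Dp44mT (-0.21 within set 1 and -0.23 within set 2) and -0.13 with DFO (-0.05 and -0.13). It was -0.46 and -0.23 with array medians subtracted and -0.83 and -0.45 without scaling, and -0.055 with DFO without both set 2 chelator arrays. With Dp44mT 15 of 17 were below 0, where 48.3% of all genes were. The arrays were separated as lower for 12 and higher for 0, where 33.1% and 30.3% of all genes were. With DFO 12 of 17 were below 0, where 53.5% of all genes were. The DFO arrays were separated as lower for 9 and higher for 1, where 30.0% and 17.1% of all genes were. Measured against the median of all genes in place of 0, 16 of 17 lay below it with Dp44mT, and 12 of 17 when the arrays were scaled by their medians or not at all. With DFO 11 of 17 lay below it, after quantile normalization and under both other scalings. None of the 17 passed the test.

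Within the ATP synthase the genes differed among themselves. ATP5F1E, the epsilon subunit of the central stalk, had 12.12 and 11.94 in Dp44mT cells and 12.38 and 12.16 in DFO cells, against 12.42 and 12.90 in control cells. The chelator arrays were below both control arrays, which themselves differed by more than the DFO change. Its change was -0.63 (SE 0.24, adjusted p = 0.19) with Dp44mT and -0.39 (SE 0.24, adjusted p = 0.57) with DFO. ATP5PF, part of the peripheral stalk, had 11.56 and 11.31 in Dp44mT cells and 11.96 and 11.66 in DFO cells, against 11.86 and 12.03 in control cells. Only its Dp44mT arrays were apart from control, at -0.51 (adjusted p = 0.21) against -0.13 with DFO (adjusted p = 0.80). ATP5F1D, the delta subunit of the central stalk, was at -0.42 and -0.30 (adjusted p = 0.23 and 0.57).

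The catalytic beta subunit ATP5F1B had 12.57 and 12.44 in Dp44mT cells and 12.57 and 12.51 in DFO cells, against 12.41 and 12.56 in control cells. The groups overlapped, and the changes were 0.02 and 0.05 (adjusted p = 0.94 and 0.92). ATP5MC1, ATP5MC2 and ATP5MC3 encode the same mature ring subunit, and their changes were -0.23, -0.19 and -0.06 with Dp44mT and -0.22, -0.25 and -0.03 with DFO. On the probe set chosen for each ring gene, all chelator arrays were below both control arrays. Of all genes, 33.1% were separated as lower with Dp44mT and 30.0% with DFO. Between the probe sets of ATP5MC2 the changes ranged over more than 1 log2 unit with each chelator, and between those of ATP5MC3 with Dp44mT. None of the ring genes passed the test (adjusted p of 0.40 to 0.83 with Dp44mT and 0.59 to 0.95 with DFO). The small membrane subunits ATP5ME and ATP5MG were at -0.04 and 0.20 with Dp44mT and 0.09 and 0.25 with DFO.

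The subunits that bind iron were set against the rest. Of 11 such genes listed, 8 were tested, namely NDUFS1, NDUFS7, NDUFV1 and NDUFV2 with clusters and SDHC, SDHD, CYC1 and CYCS with haem. NDUFS8, SDHB and UQCRFS1 were not analysed here. The median change of the 8 was -0.20 with Dp44mT, against -0.12 for the other 67. With DFO it was -0.12, against -0.05. The difference of the medians was -0.07 with each chelator. It was -0.02 within set 1 and -0.14 within set 2 for Dp44mT, and -0.01 and -0.08 for DFO. With the mean over all probe sets of each gene, both differences turned, to 0.012 with Dp44mT and 0.046 with DFO. Leaving out the set 1 DFO array also turned the DFO difference, to 0.012. Without scaling, or with array medians subtracted, it was -0.21 with Dp44mT and -0.15 with DFO.

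The 8 genes ran from -0.61 to 0.32 with Dp44mT and from -0.39 to 0.20 with DFO. Cluster genes had a median of -0.18 with Dp44mT and -0.14 with DFO, and haem genes -0.21 and -0.08. NDUFS1, the largest cluster subunit, had 10.28 and 9.83 in Dp44mT cells and 10.35 and 10.15 in DFO cells, against 10.36 and 10.49 in control cells. The set 1 chelator arrays were close to control and the set 2 arrays further below, with changes of -0.37 (adjusted p = 0.35) and -0.17 (adjusted p = 0.77). NDUFV1, which binds the flavin and a cluster, had 11.41 and 11.40 in Dp44mT cells and 11.23 and 11.35 in DFO cells, against 11.53 and 11.25 in control cells. The groups overlapped, with changes of 0.01 and -0.10 (adjusted p = 0.97 and 0.84). Within complex I alone the 4 cluster genes had a median of -0.18 and the other 28 genes -0.11 with Dp44mT, and -0.14 and -0.07 with DFO.

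**Figure D4:**
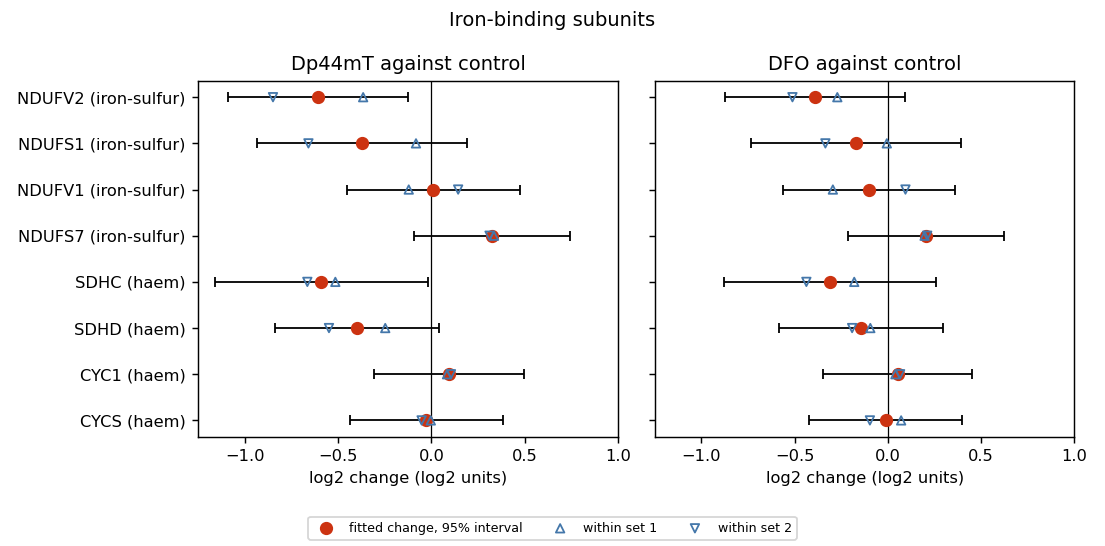
Change against control of the 8 tested iron-binding subunits with Dp44mT (left) and DFO (right) on the log2 scale. Filled circles are fitted changes with 95% intervals, and triangles are the differences within set 1 and within set 2. NDUFV2 and SDHC are lowest with Dp44mT, NDUFS7 lies above 0 in both panels, and CYC1 and CYCS lie near 0.

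Dp44mT and DFO were given at concentrations that differ 10-fold in molar terms, so their values stand side by side and the contrast is between these conditions, not between equal doses. The median change of the 75 genes for Dp44mT against DFO was -0.07 (-0.05 within set 1 and -0.10 within set 2), against 0.02 for all genes. Of the 75, 57 were below 0 and 18 above, where 46.7% of all genes were below 0. Below the median of all genes lay 66 of 75, against 50 of 75 with array medians subtracted or without scaling. The Dp44mT arrays were both below the DFO arrays for 21 genes (28.0%) and both above for 5 (6.67%), against 13.1% and 14.4% of all genes. The lowest value was -0.38 for ATP5PF (95% interval -0.90 to 0.14, adjusted p = 0.92). NDUFA5 was at -0.35 (-0.82 to 0.12, adjusted p = 0.92). The highest was 0.50 for COX6B2 (-0.67 to 1.66, adjusted p = 0.93), and COX4I2 was at 0.24 (-0.22 to 0.70, adjusted p = 0.92). The interval lay within a 2-fold change for 73 of 75 genes, against 57.7% of all genes. This does not show that the chelators act alike, since smaller differences lie within these intervals.

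Other probe sets of the same genes gave a check on the choice of 1 probe set a gene. Of the probe sets for subunit genes, 141 passed the filter, and 0 passed the adjusted threshold in any contrast when each was tested by itself. In 39 genes with 2 or more, the range of changes between probe sets had a median of 0.299 with Dp44mT and 0.209 with DFO. It was over 1 for ATP5F1C, ATP5MC2, ATP5MC3, COX7B and SDHC with Dp44mT and for ATP5F1C, ATP5MC2 and NDUFA10 with DFO, of which ATP5F1C and NDUFA10 are named for this after their values were seen. For SDHC a dim probe set was at -1.42 with Dp44mT while a brighter one was at -0.15. For ATP5F1C a dimmer probe set was at 0.75 with Dp44mT and 0.98 with DFO, while the chosen one was at -0.26 and -0.17.

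Genes around the chain were read for comparison, as lists of known function. Assembly factors, which insert cofactors and join subunits, had 48 tested genes. With Dp44mT 0 rose and 2 fell, where 1.91% of all genes rose and 1.46% fell. With DFO 0 rose and 1 fell, where 1.04% of all genes rose and 0.0593% fell. Their median change was -0.47 with Dp44mT (-0.28 within set 1 and -0.65 within set 2) and -0.35 with DFO (-0.20 and -0.41). The median of all genes was 0.03 with Dp44mT and -0.03 with DFO. COA7, an assembly factor of complex IV, had 6.16 and 5.65 in Dp44mT cells and 6.82 and 5.79 in DFO cells, against 9.21 and 9.34 in control cells. The chelator arrays lay far below control and close to the filter level, and COA7 fell by a log2 change of -3.37 with Dp44mT (SE 0.39, adjusted p = 0.024) and of -2.97 with DFO (SE 0.39, adjusted p = 0.048). PET117, also of complex IV, had 7.66 and 7.35 in Dp44mT cells and 8.23 and 7.70 in DFO cells, against 9.07 and 9.30 in control cells. It fell by 1.68 with Dp44mT (SE 0.26, adjusted p = 0.043) and was at -1.22 with DFO (adjusted p = 0.15). SDHAF3 of complex II was at -1.59 and -0.80 (adjusted p = 0.076 and 0.41) and COA3 of complex IV at -1.30 and -1.02 (adjusted p = 0.061 and 0.18). The DFO call of COA7 ended with the replicate block (adjusted p = 0.0500281), with a pseudocount of 1, without the filter, with only the 2 groups compared, without both set 2 chelator arrays, or with the mean of its probe sets, where the change was -2.19. The Dp44mT call of PET117 ended with a pseudocount of 1, with either other scaling, or with the mean of its probe sets, where the change was -0.92.

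Regulators of mitochondrial biogenesis and mtDNA expression had 17 tested genes, of which 1 rose and 0 fell with each chelator. Of all genes, 1.91% rose and 1.46% fell with Dp44mT, and 1.04% rose and 0.0593% fell with DFO. PPARGC1A, the coactivator PGC-1alpha, had 7.22 and 7.37 in Dp44mT cells and 7.95 and 7.93 in DFO cells, against 6.08 and 5.98 in control cells. It rose 2.41-fold with Dp44mT (log2 change 1.27, SE 0.17, adjusted p = 0.030) and 3.76-fold with DFO (1.91, SE 0.17, adjusted p = 0.018). With the mean of its probe sets the changes were 0.79 and 1.07 and did not pass. Both calls also ended with only the 2 groups compared (adjusted p = 0.057 and 0.056), and the DFO call ended without both set 2 chelator arrays (adjusted p = 0.063). Its relative PPARGC1B was at -1.71 and -1.17 (adjusted p = 0.061 and 0.23). POLG, the mtDNA polymerase, was at 0.80 and 0.76 (adjusted p = 0.071 and 0.16), and TFB2M, a mitochondrial transcription factor, at -0.77 and -0.61 (adjusted p = 0.081 and 0.24). The median of the list was -0.34 with Dp44mT and -0.09 with DFO, against 0.03 and -0.03 for all genes. The mtDNA-encoded subunits matched 0 of 13 symbols on the array and were not analysed here.

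Known HIF targets listed for a link to mitochondria had 8 tested genes, of which 4 rose and 0 fell with each chelator. Over all genes, 1.91% rose and 1.46% fell with Dp44mT, and 1.04% rose and 0.0593% fell with DFO. The medians of the list were 1.13 for Dp44mT and 1.07 for DFO, against 0.03 and -0.03 for all genes. BNIP3L, a receptor for the removal of mitochondria, had 10.23 and 10.25 in Dp44mT cells and 10.32 and 10.24 in DFO cells, against 7.76 and 7.74 in control cells. It rose 5.63-fold with Dp44mT (SE 0.16 log2 units, adjusted p = 0.0067) and 5.76-fold with DFO (adjusted p = 0.011). PDK1, the kinase that switches off pyruvate dehydrogenase, rose 3.23-fold and 3.80-fold (adjusted p = 0.035 and 0.040). BNIP3 rose 2.82-fold and 3.25-fold (adjusted p = 0.022 and 0.023), and MXI1, an antagonist of MYC, rose 2.62-fold and 2.57-fold (adjusted p = 0.026 and 0.041). The subunit COX4I2 and its complex IV neighbour COXFA4L2 are on this list and did not pass. LONP1 and HIGD1A, named to complete the list, did not pass either.

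Genes that supply clusters and haem had 15 tested genes, of which 2 rose and 0 fell with Dp44mT and 0 rose and 0 fell with DFO. Among all genes, 1.91% rose and 1.46% fell with Dp44mT, and 1.04% rose and 0.0593% fell with DFO. The list had medians of -0.36 and -0.34, against 0.03 and -0.03 for all genes. ALAS1, the first enzyme of haem synthesis, had 10.16 and 10.01 in Dp44mT cells and 9.92 and 9.76 in DFO cells, against 8.83 and 8.78 in control cells. It rose 2.42-fold with Dp44mT (adjusted p = 0.032) and was 2.04-fold higher with DFO without passing (adjusted p = 0.086). ISCA1, a late factor of iron-sulfur cluster assembly, rose 2.42-fold with Dp44mT (adjusted p = 0.037) and was at 1.80-fold with DFO (adjusted p = 0.15). NFS1, the cysteine desulfurase of cluster assembly, was at -0.86 and -0.53 (adjusted p = 0.12 and 0.44), and ISCA2, the partner of ISCA1, at -0.95 and -0.43 (adjusted p = 0.18 and 0.66). The citrate cycle had 11 tested genes, of which 0 rose and 0 fell with either chelator, with medians of -0.22 and -0.11. Its lowest named values were -0.91 for SUCLA2 with Dp44mT (adjusted p = 0.19) and -0.61 for OGDH with DFO (adjusted p = 0.31). Without scaling between arrays, the calls of PPARGC1A, BNIP3L, PDK1, BNIP3, MXI1, ALAS1, ISCA1, VEGFA and NDRG1 all ended, with the same direction. With array medians subtracted, the calls of PDK1, BNIP3 and MXI1 ended for both chelators and those of PPARGC1A, ALAS1 and ISCA1 for Dp44mT. With only the 2 groups compared, the calls of PDK1, ALAS1 and ISCA1 ended for Dp44mT and those of PDK1, BNIP3, MXI1 and NDRG1 for DFO. Without both set 2 chelator arrays, every DFO call named here ended, as did the Dp44mT calls of PDK1 and ISCA1. The DFO calls of PDK1 and MXI1 ended with a pseudocount of 1, and that of MXI1 with the replicate block (adjusted p = 0.057). Every call named here ended when 1 array of its own contrast was left out, where 0 of all genes passed.

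**Figure D5:**
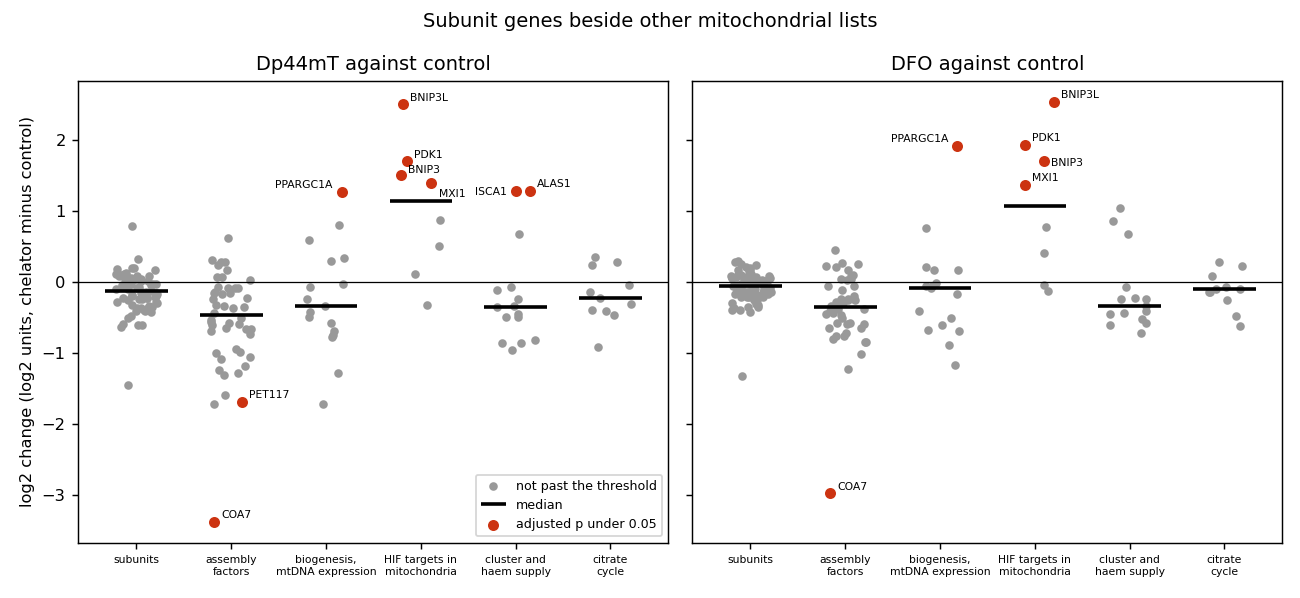
Change against control of the 75 subunit genes and of the genes of 5 related lists, on the log2 scale, for Dp44mT (left) and DFO (right). Each point is a gene, red points passed at an adjusted p under 0.05 and bars are medians. Most subunit genes lie close to 0, with no red point, while genes of the related lists spread further on both sides.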

How the data were processed

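The series measured gene expression in 3 groups of 2 arrays. The authors deposited linear intensities, 1 per probe set and array. Per the submitters' processing notes the software was Affymetrix Expression Console, version 1.1. How probes were summarized and arrays normalized is not given in the sources used here. From 54675 probe sets, log2(intensity + 16) was taken and quantile normalized over the 6 arrays (limma 3.58.1, R 4.3.3). Of these probe sets 41097 have 1 symbol, 1801 several and 11777 none in the platform annotation, and those with 1 symbol were kept. Each gene was read from its probe set with the highest mean. A gene was tested if this mean reached 5.55, the 25th percentile over all probe sets, which kept 16868 genes.

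The fit held the 3 groups together, with 3 residual degrees of freedom and 2.22 prior ones. Contrasts used limma's two-sided moderated test and Benjamini-Hochberg adjustment over all genes in each contrast. With 2 arrays a group, exact permutation could give no p below 0.33. The number of arrays limits the precision. The code was tested on simulated data. Members and lists were chosen with earlier results of these data known. Named genes were the iron-binding members, the isoform pairs, the 2 highest and 2 lowest of each complex per chelator, and up to 4 genes of each related list. The pseudogenes ATP5MC2P1 and COX6A1P1 and 3 non-coding genes with a subunit prefix were left out. ATP5IF1, an inhibitor, and COX7A2L, a supercomplex factor, carry the prefix and were kept. NDUFC2, NDUFS5, NDUFS8 and UQCRH are on probe sets with several symbols and were not analysed here. The set number as a replicate block, other scalings, pseudocounts, filters and probe set choices were tried as alternatives. Promoters were read with Python 3.11.15.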

Additional observations from a re-analysis of the deposited data

How the results depend on the processing

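The counts of calls, the medians of the subunit genes, of each complex and of all genes, the iron difference and the named genes were recomputed. Interquartile ranges, separated arrays, intervals within 2-fold and calls counted per related list were not. The alternatives were other scalings, pseudocounts of 1 and 64, other filters, other probe set choices and the set number as a replicate block. Further alternatives were only the 2 groups compared, each set alone and each array left out. The count of 0 subunit genes called held in all of these that have a test, except with the block for Dp44mT; each set alone has 1 array a group and no test. With the replicate block 1 gene, COX7B2, passed for Dp44mT (adjusted p = 0.046, against 0.069 to 0.44 under its other alternatives with a test), and 1 passed with the block after the control numbers were swapped, an alternative chosen after seeing the data. The labels do not say what a set marks. The deviations of same-numbered arrays correlated at -0.25 for DFO and control, -0.35 for Dp44mT and control and 0.84 for Dp44mT and DFO, so the numbers are not taken as pairs.

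Counts over all genes moved more. For DFO, 185 genes passed, against 26 without scaling, 98 with array medians subtracted, 278 with every probe set tested by itself, 61 with only the 2 groups compared, 0 without both set 2 chelator arrays and 511 with the swapped block. Leaving out single arrays gave 0 to 61, with 0 for either DFO or either control array. For Dp44mT, 569 genes passed, against 66 without scaling, 303 with array medians subtracted, 919 with a pseudocount of 64, 909 with the block and 2758 with the swapped block. Single arrays left out gave 0 to 403, with 0 for either Dp44mT or either control array. An array left out leaves a group with 1 array, assumed to vary like the others. For Dp44mT against DFO the range was 0 to 0.

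The median change of the subunit genes with Dp44mT was -0.68 without scaling, -0.30 with array medians subtracted and -0.037 without both set 2 chelator arrays, and -0.18 to -0.037 with single arrays left out. With DFO it was -0.38, -0.16 and -0.018, and -0.10 to -0.018. For Dp44mT against DFO it was -0.32 without scaling and -0.17 with array medians subtracted, and -0.14 to 0.0010 with single arrays left out. Without scaling the median of all genes was -0.50, -0.32 and -0.24 in these contrasts. Relative to it the subunit genes were at -0.17, -0.06 and -0.08, against -0.15, -0.02 and -0.09 after quantile normalization. Below 0 were 74 of 75 genes with Dp44mT and 75 of 75 with DFO without scaling, against 50 and 46. Below the median of all genes were 54 and 46, against 54 and 40.

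The difference between iron-binding and other members with Dp44mT was -0.21 under both other scalings, 0.012 with the mean of probe sets and -0.16 to -0.05 with single arrays left out. With DFO it was -0.15 under both, 0.046 with the mean of probe sets, -0.014 within set 1 and -0.11 to 0.012 with single arrays left out. For Dp44mT against DFO it was -0.010 with the mean of probe sets, 0.028 with every probe set, 0.0038 within set 2, 0.021 with iron-sulfur subunits only and -0.042 to 0.0039 with single arrays left out. The causes of these shifts were not tested.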

Other observations

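NDUFV1-DT, NDUFB2-AS1 and NDUFV2-AS1 are non-coding genes that carry a subunit's prefix. The probe set of NDUFV1-DT had log2 levels of 8.67 and 8.73 in Dp44mT cells and 7.83 and 8.60 in DFO cells, against 8.13 and 8.39 in control cells. The Dp44mT arrays were above the other 4, at a change of 0.44 (limma adjusted p = 0.39), while DFO was at -0.05 (adjusted p = 0.96). NDUFB2-AS1 was at -0.17 and 0.05, and the probe set of NDUFV2-AS1 that passed the filter at -0.11 and -0.06.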
